A study of Mus musculus with 4 samples.

Results

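The genes described here are the ligands, receptors, extracellular modulators and transcriptional targets of Wnt signalling in mouse inner ear organoids. They were chosen by symbol. All genes named Wnt, Fzd, Sfrp, Rspo or Dkk with a number were taken, together with Lef1, Tcf7, Axin2, Lgr5, Lgr6, Apcdd1 and Nkd1. This gave 48 of the 32289 genes in the tables: 19 Wnt ligands, 10 Frizzled receptors, 4 R-spondins, 2 R-spondin receptors, 8 secreted inhibitors, 2 transcription factors of the TCF/LEF family and 3 feedback targets. Each gene had 1 row, and all 48 were found in the GENCODE M21 annotation of GRCm38. The rule reads symbols only.

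The organoids were aggregates of mouse embryonic stem cells of a single line, Atoh1-nGFP-ESC, in which nuclear GFP reports Atoh1, a transcription factor needed for hair cells to form. A single droplet library was made for each of 4 groups: day 16, day 20, and day 21 cells gated as GFP high or as GFP low. Cells from whole dissociated organoids were sorted on GFP before loading, and a gate is named only for day 21. All cells therefore come from 1 line and from sorted material, with no wild-type tissue. The cell type label reads otic lineage, while the cells held mesenchyme-like, neuron-like, Merkel cell-like and epidermis-like clusters as well. Values are UMI counts summed over cells and given as counts per 1000000 UMIs of the same cells (CPM). With 1 library per group there is no replicate check and no test, and the intervals cover counting error only.

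Wnt ligands are secreted lipid-modified proteins that bind Frizzled receptors together with an Lrp co-receptor. In the canonical branch this keeps beta-catenin from being degraded, and beta-catenin then acts with TCF/LEF factors on target genes. R-spondins bind Lgr receptors and raise the amount of Frizzled on the cell surface, whereas Sfrp and most Dkk proteins are secreted inhibitors. Axin2, Nkd1 and Apcdd1 are targets of the pathway that act back on it as inhibitors. In the mouse inner ear, Wnt signalling takes part in forming the otic placode, Lgr5 marks a group of cochlear supporting cells, and Frizzled and Wnt proteins of the planar polarity branch take part in orienting hair bundles.

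The day 16 library kept 3376 cells, day 20 kept 4348, GFP high kept 3435 and GFP low kept 3686. Their total UMIs lay between 42325800 at day 20 and 107308236 in GFP high, and the median UMIs per cell between 8835.5 and 28868 in those same libraries. From 1 to 8 barcodes of kept cells were shared between any pair of libraries. The cells formed 26 clusters, of which 20 were named by marker genes. The 48 genes were left out of the clustering, so that their values did not place the cells. Cell make-up differed widely between libraries. Hair-cell-like cells made up 5.69% of day 16, 3.38% of day 20, 65.5% of GFP high and 22.4% of GFP low cells. Mesenchyme-like cells made up 28.1% of day 16, 47.1% of day 20, 1.37% of GFP high and 2.63% of GFP low cells. A level over a whole library therefore mixes cell make-up with the level per cell, and the values by cluster stand beside it.

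Of the 48 genes, 28 reached 10 CPM in some library and 21 reached 20 CPM. The number at 10 CPM was 20 at day 16, 17 at day 20, 14 in the GFP high gate and 17 in the GFP low gate. At cluster level 5 genes were at 10 CPM or more in at least 20 of the 26 clusters, 12 genes in 1 to 5 clusters, and 12 in none. No gene had 0 UMIs in all libraries. Dkk4, a secreted Dickkopf inhibitor, was at 0 in day 20 and GFP high, where a count of 0 allows up to 0.0709 and 0.028 CPM. Wnt1, Wnt2b, Wnt3a, Wnt8a and Wnt8b were at 0.385 CPM or below in each of the 4 libraries.

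**Figure D1:**
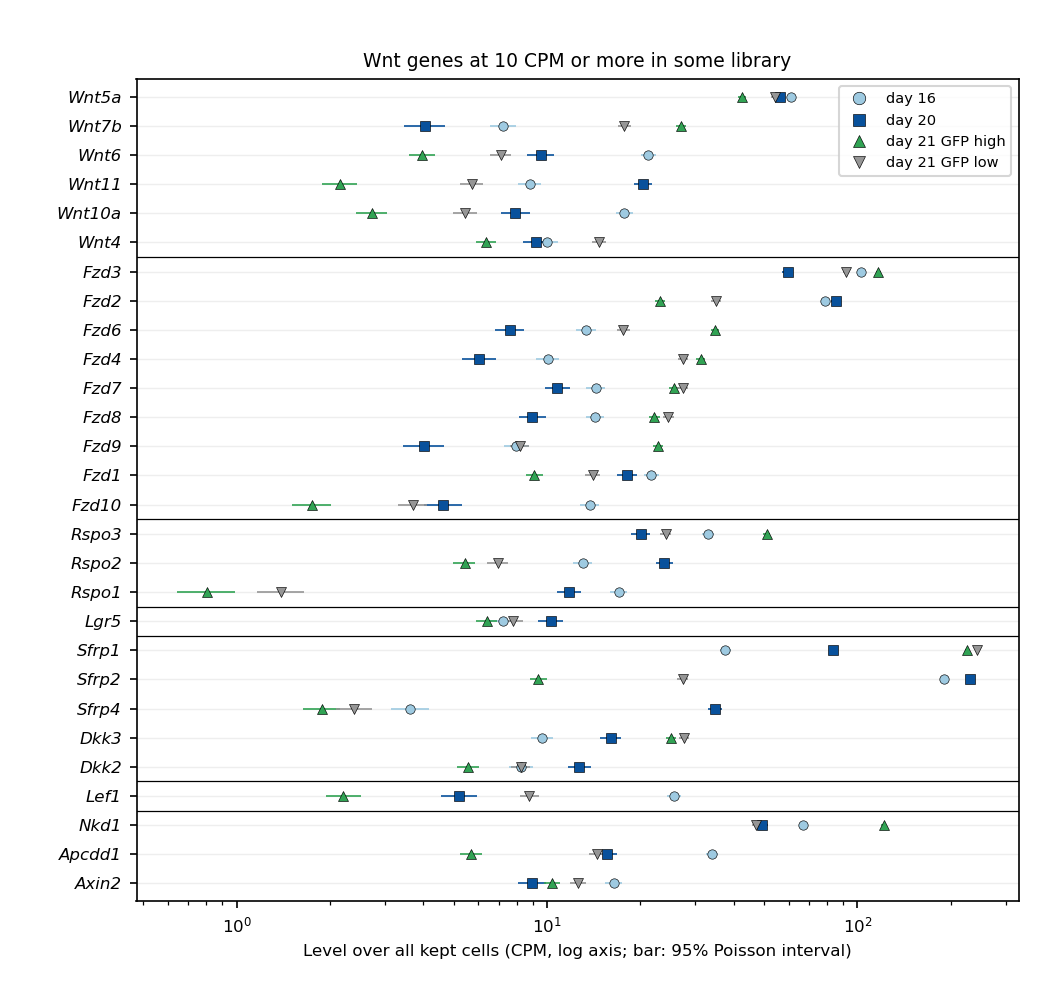
Levels of the 28 genes that reached 10 CPM in some library. Each point is 1 library (x axis, CPM on a log scale, bar for the 95% Poisson interval), and horizontal lines part ligands, Frizzled receptors, R-spondins, Lgr5, secreted inhibitors, Lef1 and feedback targets. Sfrp4 stands apart at day 20, Lef1 at day 16, and Nkd1 and Fzd9 in GFP high.

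Wnt5a, a ligand mostly studied for planar polarity and other beta-catenin-independent signalling, had 61.1 CPM at day 16, 56.3 at day 20, 42.6 in the GFP high gate and 54.3 in the GFP low gate (chromosome 14, 28504750 to 28527448, plus strand). It was at 10 CPM or more in 21 of the 26 clusters. Summed over the libraries it had 258 CPM in mesenchyme-like cluster 11, 203 in unnamed cluster 19 and 202 in mesenchyme-like cluster 15. Cluster 11 is shallow, with a median of 0.247 times the UMIs of its libraries. Hair-cell-like clusters fell into 2 levels of Wnt5a. Clusters 2 and 5 had 70.8 and 71 CPM, while clusters 6 and 7 had 8.82 and 18.5.

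Other ligands were restricted to few clusters. Wnt6, Wnt4, Wnt10a and Wnt3, of which Wnt10a and Wnt4 are known from skin and its appendages, were high in epidermis-like cluster 12. There they had 137, 90.6, 77.5 and 40.7 CPM. Wnt6 (chromosome 1, 74771892 to 74785322) and its neighbour Wnt10a (74791516 to 74804179) lie side by side on the plus strand. Outside the epidermis-like cluster Wnt6 reached 35.8 CPM at most, in unnamed cluster 16, and Wnt4 reached its highest value, 163 CPM, in mesenchyme-like cluster 21. Wnt10a was also seen at 42.3 CPM in unnamed cluster 23, together with Wnt10b at 40 CPM. That cluster is led by Krt17, Lgals7 and Krt8, with Pou4f3 and Ccer2 among its top 10 genes, and came mostly from day 16.

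Wnt7a and Wnt7b, close relatives, had different patterns. Wnt7a reached 10 CPM only in supporting-cell-like cluster 3, at 24.7 CPM, and in unnamed cluster 22, at 16.5 CPM. Cluster 22 carries hair cell and supporting cell markers at a median of 1.83 times the depth of its library. Wnt7b had 60.2 CPM in unnamed cluster 10, which is led by Oc90, Mia and Otol1, 49.7 in cluster 22, 48.4 in hair-cell-like cluster 6 and 33.4 in cluster 3. Hair-cell-like clusters 2 and 5 held Wnt7b at 1.64 and 1.89 CPM. Wnt7b was thus present in hair-cell-like clusters 6 and 7, where Wnt5a was low, and near its floor in clusters 2 and 5, where Wnt5a was high. Wnt11, a ligand of the beta-catenin-independent branch, lay between 32.9 and 44 CPM in mesenchyme-like clusters 0, 11, 15 and 17 and at 0.661 CPM or below in the 4 hair-cell-like clusters.

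Fzd3, a receptor needed with Fzd6 for hair bundle orientation in the mouse, had 103 CPM at day 16, 59.6 at day 20, 117 in the GFP high gate and 91.8 in the GFP low gate (chromosome 14, 65192449 to 65262463, minus strand). Its reads may be shared with Gm27263, an overlapping gene of the same strand. By cluster it was at 197 CPM in hair-cell-like cluster 6, between 107 and 170 CPM in the 7 neuron-like clusters, and between 10.4 and 47.5 CPM in mesenchyme-like clusters. Fzd2 had the opposite pattern. It had 473 CPM in cluster 11, 300 in cluster 17 and 162 and 161 in clusters 0 and 21, all mesenchyme-like, against 1.99 and 2.11 CPM in hair-cell-like clusters 2 and 5. Fzd6 was between 24.9 and 44.6 CPM in the 4 hair-cell-like, supporting-cell-like, Merkel cell-like, epidermis-like and Oc90-led clusters, and at 0.61 CPM or below in neuron-like clusters 4, 8 and 13.

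Fzd4, a receptor for Wnt ligands and for the unrelated ligand norrin, had 119 CPM in supporting-cell-like cluster 3, 90.1 in cluster 22 and 57.8 in hair-cell-like cluster 6. Fzd7 and Fzd8 also had their highest or second highest values in these epithelial clusters, Fzd7 with 82 CPM in cluster 10 and 64.9 in cluster 3, and Fzd8 with 65.9 CPM in cluster 3. Fzd9 was highest in hair-cell-like cluster 6, at 59.3 CPM, followed by cluster 22 at 37.6. Fzd10 was highest in epidermis-like cluster 12, at 37.1 CPM, with 16.5 CPM in Merkel cell-like cluster 1. Fzd5 stayed below 10 CPM in every cluster.

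Rspo3 (chromosome 10, 29452416 to 29535867, minus strand) was high in 2 clusters of different kinds. It had 265 CPM in mesenchyme-like cluster 15 and 218 CPM in hair-cell-like cluster 2, which is led by Smpx, Otof, Xirp2 and Cib3. The other hair-cell-like clusters 5, 6 and 7 had 4.95, 0.838 and 8.69 CPM, and supporting-cell-like cluster 3 and the Oc90-led cluster 10 had 1.74 and 3.49 CPM. In cluster 15 the 10 cells with the most Rspo3 held 32.1% of its UMIs, against 3.65% in cluster 2, where 77.1% of all cells had a UMI. After each cell was thinned to 3000 UMIs, 40.6% (95% exact interval 37.2 to 44.0) of GFP high cells in cluster 2 and 39.5% (34.3 to 44.9) of GFP low cells had an Rspo3 UMI. Among supporting-cell-like cells, taken as a type near background, 0.345% in GFP high and 0.578% in GFP low had a UMI. Median UMIs were 26826.5 in GFP high and 24243 in GFP low cells of cluster 2, and 20049.5 in GFP high and 15685 in GFP low cells of the supporting-cell-like cluster. Without thinning, 80.6% of GFP high and 76.2% of GFP low cells of cluster 2 had an Rspo3 UMI. The difference between cluster 2 and supporting-cell-like cells was thus present at equal depth in both gates. Rspo3 overlaps Gm20276 on the same strand, and reads of the overlap may not be counted.

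Rspo1 and Rspo2 were highest in mesenchyme-like clusters, with different leading clusters. Rspo1 had 131 CPM in cluster 15, 30.3 in cluster 17, 25 in cluster 11 and 17.1 in cluster 0. Rspo2 had 138 CPM in cluster 11, 102 in cluster 17 and 50.5 in cluster 0, against 6.19 in cluster 15. The Oc90-led cluster 10 also held Rspo2, at 46.9 CPM. In the 4 hair-cell-like clusters Rspo1 and Rspo2 were at 0.706 CPM or below, and Rspo4 did not reach 10 CPM anywhere.

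Lgr5 and Lgr6, the R-spondin receptors, were found at 10.3 CPM or below in every library, Lgr5 with 7.23 CPM at day 16, 10.3 at day 20, 6.39 in the GFP high gate and 7.78 in the GFP low gate. By cluster Lgr5 was highest in mesenchyme-like cluster 11, at 71.3 CPM, then in supporting-cell-like cluster 3 at 36.9 CPM. Cluster 11 is the shallow cluster, with 117 Lgr5 UMIs and 14.8% of cells with a UMI, against 805 UMIs and 28.9% in cluster 3. These shares are not at equal depth. Lgr5 was also at 22.7 and 19.2 CPM in mesenchyme-like clusters 17 and 0, so that high Lgr5 was not limited to the supporting-cell-like cluster. Lgr6 had 32.5 CPM in cluster 3, 30.9 in epidermis-like cluster 12 and 26.2 in cluster 11. Over the 26 clusters the Spearman correlation of the pair was 0.80, as a description, since clusters share libraries and differ in depth.

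**Figure D2:**
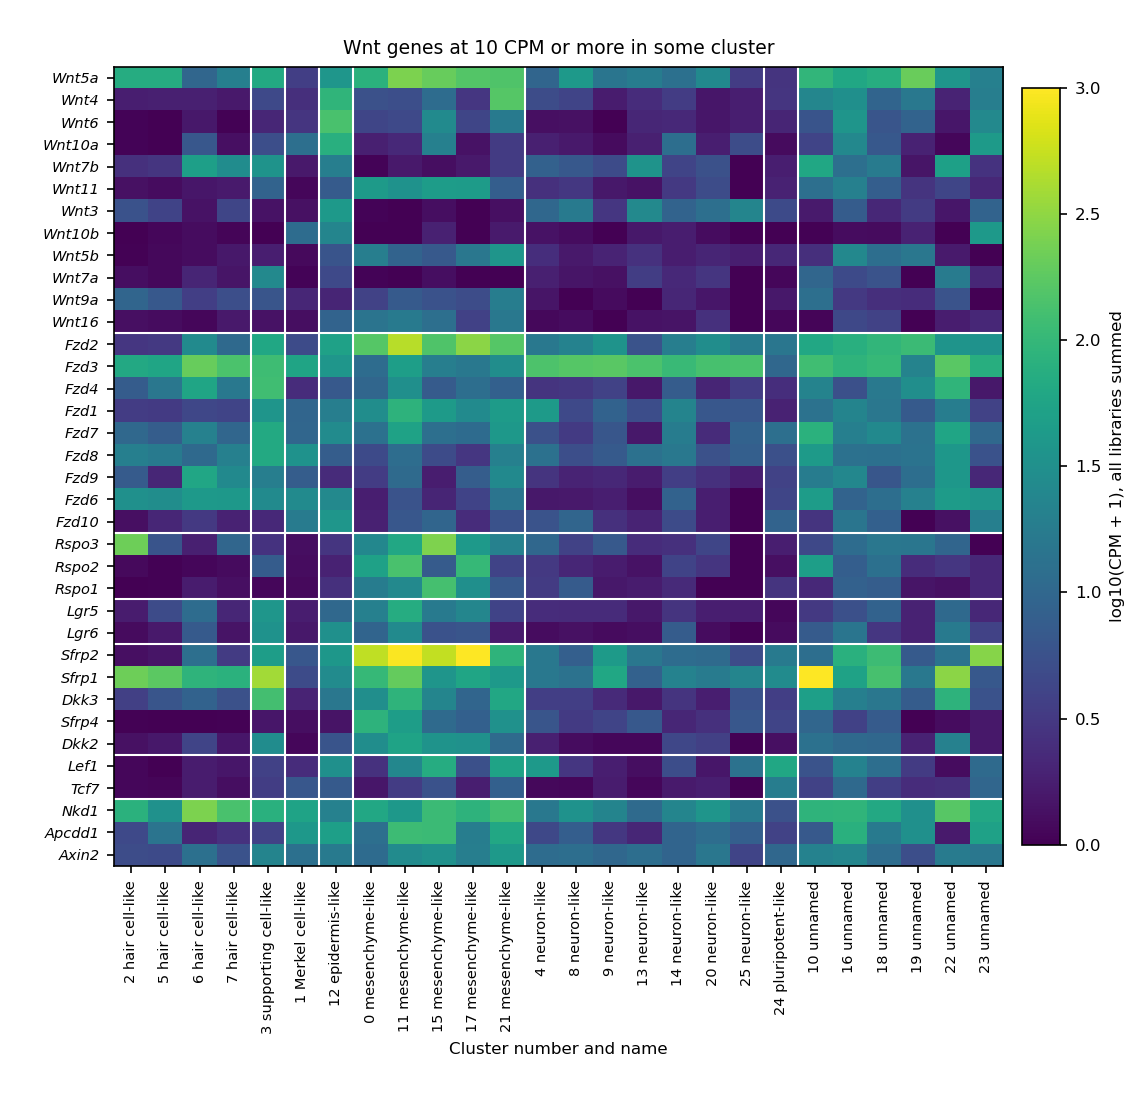
Levels of the genes that reached 10 CPM in some cluster (rows, by role) in the 26 clusters (columns, with number and name), summed over the 4 libraries. Colour gives log10(CPM + 1). Sfrp2 is bright in the mesenchyme-like columns and dark in hair-cell-like clusters 2 and 5, Rspo3 is bright in hair-cell-like cluster 2 and mesenchyme-like cluster 15, and Wnt6 and Wnt10a in the epidermis-like column.

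Sfrp1 had 37.5 CPM at day 16, 83.6 at day 20, 225 in the GFP high gate and 242 in the GFP low gate (chromosome 8, 23411502 to 23449632, plus strand). Its highest cluster was the Oc90-led cluster 10 at 1000.4 CPM, where 97.2% of cells had a UMI, followed by supporting-cell-like cluster 3 at 386 CPM and cluster 22 at 299 CPM. It was also present in all 4 hair-cell-like clusters, between 81.4 and 218 CPM. Sfrp2, a related inhibitor, had 191 CPM at day 16, 231 at day 20, 9.37 in the GFP high gate and 27.4 in the GFP low gate. Its levels were 1042.7 CPM in cluster 17, 968 in cluster 11, 531 in cluster 15 and 513 in cluster 0, all mesenchyme-like, and 284 CPM in cluster 23. In hair-cell-like clusters 2 and 5 Sfrp2 had 0.316 and 0.473 CPM, from 10 and 11 UMIs.

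Sfrp1 and Sfrp2 thus had different leading clusters, although mesenchyme-like cluster 11 held both. Sfrp4 was highest in mesenchyme-like cluster 0, at 84.9 CPM. Dkk3, a divergent Dickkopf relative, had 125 CPM in supporting-cell-like cluster 3, 87.7 in cluster 11 and 86.9 in cluster 22. Dkk2 had 54.2 CPM in cluster 11 and 28 in cluster 3. Dkk1, Dkk4 and Sfrp5 did not reach 10 CPM in any cluster.

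Lef1, a DNA-binding partner of beta-catenin that is itself a target of the pathway in many tissues, had 25.7 CPM at day 16, 5.22 at day 20, 2.21 in the GFP high gate and 8.77 in the GFP low gate (chromosome 3, 131110471 to 131224356, plus strand). By cluster it had 70.5 CPM in mesenchyme-like cluster 15, 59.6 in pluripotent-like cluster 24, 54.1 in mesenchyme-like cluster 21, 40.5 in neuron-like cluster 4 and 30.7 in epidermis-like cluster 12. In the 4 hair-cell-like clusters it was at 0.706 CPM or below. Tcf7, its relative, was highest in the pluripotent-like cluster, at 17.5 CPM, and below 10 CPM elsewhere. In GFP low the 89 pluripotent-like cells, 2.41% of its cells, held 54.1% of the Lef1 and 46.7% of the Tcf7 UMIs. Lef1 overlaps Gm42449 and Tcf7 overlaps Gm26551 on the same strand.

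Nkd1, an inhibitor that binds Dishevelled, had 66.7 CPM at day 16, 49.3 at day 20, 121 in the GFP high gate and 47.2 in the GFP low gate (chromosome 8, 88521354 to 88594884, plus strand). It was highest in hair-cell-like cluster 6, at 257 CPM, then in cluster 22 at 165 CPM and hair-cell-like cluster 7 at 135 CPM. Axin2, a scaffold of the complex that degrades beta-catenin, had 16.4 CPM at day 16, 8.95 at day 20, 10.4 in the GFP high gate and 12.6 in the GFP low gate (chromosome 11, 108920349 to 108950783, plus strand). It varied less than the others between clusters, from 3.16 to 39.5 CPM, and was at 11.7 CPM in cluster 6, where Nkd1 was highest. Apcdd1, a membrane-bound inhibitor, had 112 and 111 CPM in mesenchyme-like clusters 11 and 15 and 1.06 CPM in cluster 6. The feedback targets thus did not follow a single order over the clusters. As a description over 26 clusters, Spearman's rho was 0.49 for Axin2 and Nkd1, 0.40 for Axin2 and Apcdd1, and 0.06 for Nkd1 and Apcdd1. Between a feedback target and a TCF/LEF factor it ran from -0.13 for Nkd1 and Lef1 to 0.65 for Axin2 and Tcf7, with 0.54 for Lef1 and Apcdd1.

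The promoter windows of Axin2, Nkd1 and Lef1 are printed as those of pathway targets. Each runs from 250 bases before to 50 bases after a RefSeq transcription start on GRCm38.p6, 5′ to 3′ on the plus strand. Capitals mark a match to the core letters bound by TCF/LEF factors, which were searched on both strands. The letters were CTTTGAA, or the same with an end of AT (CTTTGAT), of TA (CTTTGTA) or of TT (CTTTGTT). Axin2, Nkd1 and the most upstream of 4 Lef1 starts held 0 matches. The Nkd1 window lies inside the annotated gene, downstream of its first base. The last 2 lines give windows that hold 1 match each on the minus strand, so that the capitals read as its reverse complement. In a downstream Lef1 start the match to CTTTGTA has its leftmost base at position -147 from the start, and in Wnt11 the match to CTTTGAT is at position -51.
Axin2, chr11:108920099-108920398: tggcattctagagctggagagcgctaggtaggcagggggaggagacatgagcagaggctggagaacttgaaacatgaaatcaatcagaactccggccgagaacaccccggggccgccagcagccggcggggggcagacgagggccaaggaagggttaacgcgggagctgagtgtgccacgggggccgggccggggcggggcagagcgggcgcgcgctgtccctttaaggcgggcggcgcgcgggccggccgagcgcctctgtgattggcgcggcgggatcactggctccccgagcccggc
Nkd1, chr8:88527383-88527682: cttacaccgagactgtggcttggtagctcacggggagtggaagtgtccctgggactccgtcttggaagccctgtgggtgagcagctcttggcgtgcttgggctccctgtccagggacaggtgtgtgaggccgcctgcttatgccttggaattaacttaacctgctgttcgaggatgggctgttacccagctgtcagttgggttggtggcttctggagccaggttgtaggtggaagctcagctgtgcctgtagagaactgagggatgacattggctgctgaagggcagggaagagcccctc
Lef1, upstream start, chr3:131110047-131110346: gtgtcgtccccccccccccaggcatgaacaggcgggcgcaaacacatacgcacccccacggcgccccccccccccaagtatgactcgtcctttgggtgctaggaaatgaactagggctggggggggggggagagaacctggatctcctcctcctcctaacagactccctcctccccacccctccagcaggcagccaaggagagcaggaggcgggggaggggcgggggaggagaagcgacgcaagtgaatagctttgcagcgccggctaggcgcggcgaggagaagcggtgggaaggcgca
Lef1, downstream start, chr3:131156044-131156343: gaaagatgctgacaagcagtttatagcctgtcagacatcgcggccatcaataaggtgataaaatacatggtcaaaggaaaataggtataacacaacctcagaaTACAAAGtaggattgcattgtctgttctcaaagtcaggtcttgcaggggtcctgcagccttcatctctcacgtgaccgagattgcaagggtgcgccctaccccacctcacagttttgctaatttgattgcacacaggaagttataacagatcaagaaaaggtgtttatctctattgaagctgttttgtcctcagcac
Wnt11, chr7:98834862-98835161: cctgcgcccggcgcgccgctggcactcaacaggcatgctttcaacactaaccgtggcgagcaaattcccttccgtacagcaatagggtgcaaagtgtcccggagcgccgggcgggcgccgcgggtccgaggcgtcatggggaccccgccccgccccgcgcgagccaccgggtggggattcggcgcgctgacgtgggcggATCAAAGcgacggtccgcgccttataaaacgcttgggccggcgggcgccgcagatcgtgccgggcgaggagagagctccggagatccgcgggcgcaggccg
Of all 32851 windows in the RefSeq table, 16.9% held at least 1 match, and of its 27025 genes 18.9% had a match in some window. Of the 48 genes, 32 were in the table with 39 windows, and 6 of them (Fzd7, Lef1, Wnt5b, Wnt11, Wnt3 and Dkk1) had a match in 1 window each. A match is a description of letters, and its absence says only that these letters are not in this window. Lgr5 is named without a sequence.

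Day 20 was then set against day 16. The labels give no GFP gate for these 2 libraries, so a difference in gate and a difference in age cannot be told apart. The size rule asked for a CPM ratio of at least 2 in either direction, a 95% counting interval without 1, and 10 CPM in either library. Of the 48 genes 25 had the level to be compared. Day 20 was higher for 3, lower for 5 and neither for 17, against 5.04% higher and 6.76% lower of the 9885 genes compared in all. The median log2 ratio, with 1 CPM added to both levels, was -0.43 over the 25 genes and -0.19 over all genes, and TMM scaling raised every log2 ratio by 0.19.

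The 3 higher genes were Sfrp4, Wnt11 and Sfrp1. Sfrp4 had 34.7 CPM at day 20 and 3.63 at day 16, a ratio of 9.58 (95% interval 8.28 to 11.1). Mesenchyme-like cluster 0, where Sfrp4 was highest, held 1569 cells at day 20 and 11 at day 16. In cluster 11, which both days held, Sfrp4 had 79.3 CPM at day 20 and 11.5 at day 16. Wnt11 had 20.4 CPM at day 20 and 8.79 at day 16, and in mesenchyme-like cluster 15 it had 80.8 CPM at day 20 and 35.8 at day 16. Sfrp1 had 83.6 CPM at day 20 and 37.5 at day 16, and in epidermis-like cluster 12 it had 55.9 CPM at day 20 and 9.59 at day 16. Clusters did not all go this way. Sfrp4 was above 1 in 3 and below 1 in 3 of 6 clusters held by both days, with the interval above 1 in 2 and below 1 in none, and in mesenchyme-like cluster 15 it had 1 UMI at day 20 and 22 at day 16. Wnt11 was above 1 in 4 and below 1 in 3 of 7 clusters, with the interval above 1 in 2 and below 1 in none, and in cluster 11 its ratio was 1.06 (0.594 to 1.89). Sfrp1 was above 1 in 6 and below 1 in 3 of 9, with the interval above 1 in 4 and below 1 in 1.

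The 5 lower genes were Lef1, Fzd10, Wnt10a, Wnt6 and Apcdd1. Lef1 had 5.22 CPM at day 20 and 25.7 at day 16, a ratio of 0.203 (0.176 to 0.234). Fzd10 had 4.63 CPM at day 20 and 13.7 at day 16, a ratio of 0.338 (0.287 to 0.395). Apcdd1 had 15.6 CPM at day 20 and 33.9 at day 16, a ratio of 0.461 (0.421 to 0.504). Wnt6 and Wnt10a are the neighbouring epidermis-like genes. Wnt6 had 9.55 CPM at day 20 and 21.2 at day 16, and Wnt10a had 7.91 CPM at day 20 and 17.7 at day 16. Epidermis-like cells were 3.04% of day 20 and 7.02% of day 16. Within them Wnt6 had 121 CPM at day 20 and 156 at day 16, and Wnt10a was on the other side of 1, with 90.4 CPM at day 20 and 61.9 at day 16. With TMM scaling Wnt6, Wnt10a and Apcdd1 had log2 ratios of -0.96, -0.97 and -0.93 and were no longer past 2-fold.

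**Figure D3:**
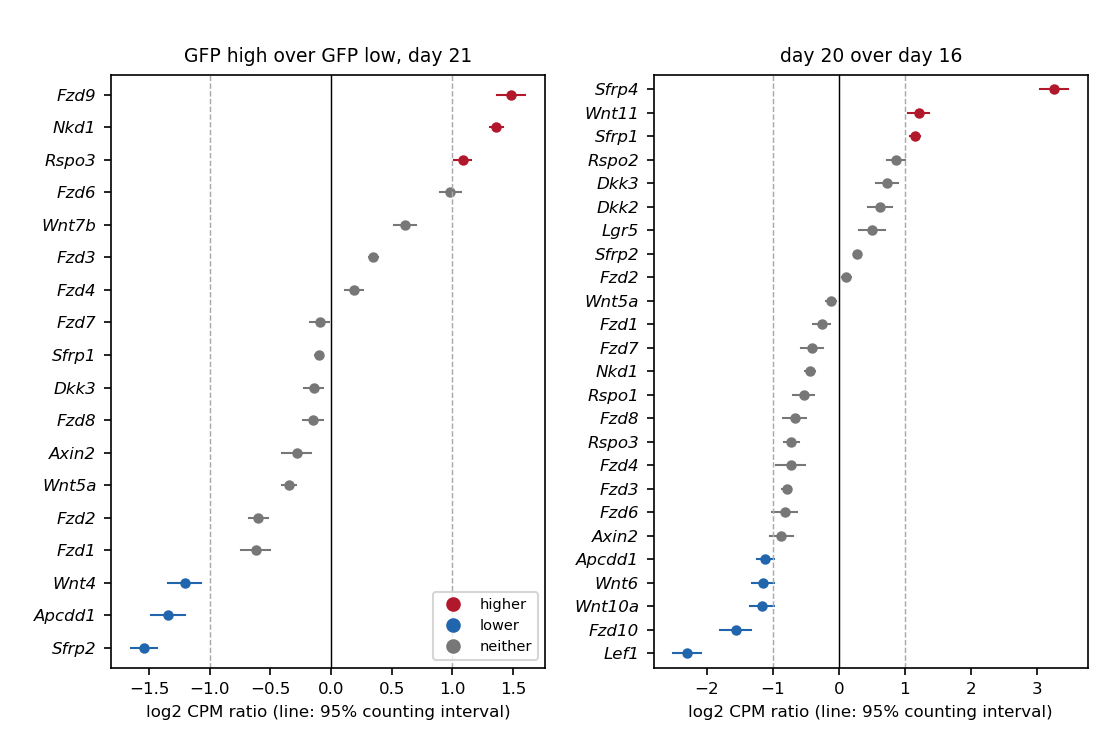
log2 CPM ratios over all kept cells, GFP high over GFP low at day 21 on the left and day 20 over day 16 on the right, for genes that reached 10 CPM in either library. Lines are 95% counting intervals and dashed lines mark 2-fold. Fzd9, Nkd1 and Rspo3 pass 2-fold upward on the left, and Lef1 lies lowest on the right, at -2.30.

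Inside single clusters Lef1, Tcf7, Axin2, Nkd1 and Apcdd1 had ratios of day 20 over day 16 below 1 in nearly every case. Both days had 50 or more cells in 9 clusters, none of them hair-cell-like or supporting-cell-like. A gene was read in such a cluster when it had 10 or more UMIs over both days. The ratio was below 1 for Lef1 in 8 of 8 clusters, for Axin2 in 9 of 9, for Nkd1 in 9 of 9, for Tcf7 in 5 of 5 and for Apcdd1 in 7 of 8. The counting interval lay below 1 in 7, 5, 6, 4 and 6 of these clusters, in the same order, and above 1 in none. Over all genes and the same clusters, 57.1% of ratios were below 1, with the interval below 1 in 20.4% and above 1 in 14.7%. With TMM scaling of the libraries the ratios remained below 1 in 8 of 8, 8 of 9, 9 of 9, 5 of 5 and 6 of 8 clusters, and the interval lay below 1 in 6 for Lef1, 4 for Axin2, 5 for Nkd1, 2 for Tcf7 and 6 for Apcdd1. Lgr5 and Lgr6, which are also targets in some tissues, had ratios on both sides of 1. Lgr5 was below 1 in 3 of 5 clusters, with the interval below 1 in 1, and in 2 of 5 with TMM scaling. Lgr6 was below 1 in 2 of 4, with the interval below 1 in 2 and above 1 in 1. The clusters of a day share a library, a dissociation and its free RNA, so they are not replicates.

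The sizes differed by gene. The median ratio over clusters was 0.22 for Lef1, 0.45 for Tcf7, 0.516 for Axin2, 0.537 for Apcdd1 and 0.612 for Nkd1, against 0.923 over all genes. In mesenchyme-like cluster 15, Lef1 had 33.5 CPM at day 20 and 90.4 at day 16, and Axin2 had 20.6 CPM at day 20 and 36.2 at day 16. In the same cluster Nkd1 had 86.8 CPM at day 20 and 126 at day 16, and Apcdd1 had 72.2 CPM at day 20 and 133 at day 16. The cluster held 136 cells at day 20 and 300 at day 16, the intervals of all 4 ratios lay below 1, and of the 4 genes Lef1 also passed 2-fold. In Merkel cell-like cluster 1, Nkd1 had 32.7 CPM at day 20 and 72 at day 16. In neuron-like cluster 4, Lef1 had 30.6 CPM at day 20 and 59 at day 16, while Apcdd1, the exception above, had 4.47 CPM at day 20 and 4.33 at day 16. Whole-library ratios of Axin2 (0.546) and Nkd1 (0.739) did not pass 2-fold.

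**Figure D4:**
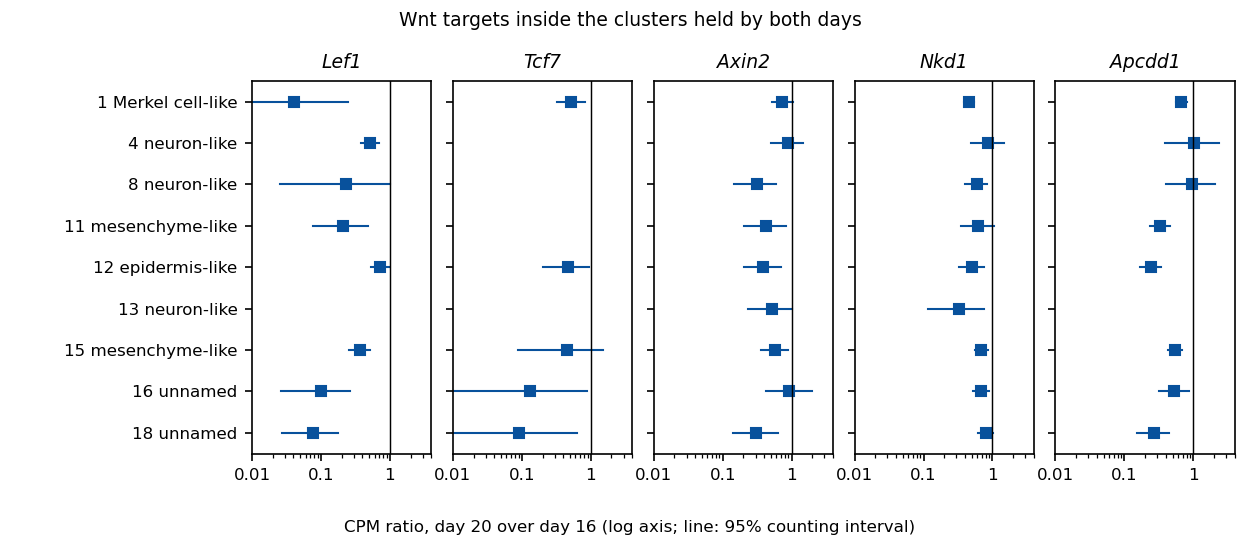
Ratio of day 20 over day 16 (x axis, log scale, line for the 95% counting interval) for Lef1, Tcf7, Axin2, Nkd1 and Apcdd1 in each of the 9 clusters with 50 or more cells at both days (rows). All points lie left of 1 but that of Apcdd1 in neuron-like cluster 4, at 1.03.

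Other genes moved apart inside clusters. Wnt5a had a ratio below 1 in 8 of 9 clusters, with the interval below 1 in 8, although its whole-library ratio was 0.92. In cluster 15 it had 163 CPM at day 20 and 238 at day 16, and in cluster 11 it had 219 CPM at day 20 and 307 at day 16. Fzd2 was below 1 in 9 of 9 clusters, with a whole-library ratio of 1.08. Both genes are high in mesenchyme-like clusters, whose share of cells was larger at day 20. Fzd10 was below 1 in 7 of 7. Wnt4 went the other way, above 1 in 6 of 6 clusters with the interval above 1 in 4, and in epidermis-like cells it had 95.1 CPM at day 20 and 62.8 at day 16. The interval lay below 1 in 7 clusters for Fzd2 and in 6 for Fzd10. With TMM scaling the 4 counts of ratios above or below 1 were the same, but those of intervals changed. The interval then lay below 1 in 7 clusters for Wnt5a, 4 for Fzd2 and 5 for Fzd10, and above 1 in 5 for Wnt4. Over all genes, without TMM scaling, 57.1% of ratios were below 1, with the interval below 1 in 20.4% and above 1 in 14.7%.

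At day 21 the gates were compared over all kept cells. Of 18 genes with the level for it, 3 were higher in GFP high, 3 lower and 12 neither, against 6.95% higher and 7.72% lower of 10542 genes. The median log2 ratio was -0.12 over the 18 genes and -0.04 over all, and TMM scaling raised every log2 ratio by 0.12. Fzd9 had 22.8 CPM in GFP high and 8.16 in GFP low, a ratio of 2.79 (2.57 to 3.03). Nkd1 had 121 CPM in GFP high and 47.2 in GFP low, a ratio of 2.57 (2.49 to 2.66). Rspo3 had 51 CPM in GFP high and 24.1 in GFP low, a ratio of 2.12 (2.02 to 2.23). Each of these 3 genes had a hair-cell-like cluster as its highest or second highest cluster. Sfrp2, Apcdd1 and Wnt4 were lower. Sfrp2 had 9.37 CPM in GFP high and 27.4 in GFP low, Apcdd1 had 5.69 CPM in GFP high and 14.4 in GFP low, and Wnt4 had 6.37 CPM in GFP high and 14.7 in GFP low. Over all libraries Wnt4 had 0.614 to 0.838 CPM in the 4 hair-cell-like clusters, Apcdd1 had 1.06 to 13.1 CPM and Sfrp2 had 0.316 to 11.5 CPM. Fzd6 lay just short of the size rule, at 34.8 CPM in GFP high and 17.6 in GFP low, a ratio of 1.98.

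Cell make-up moved with this comparison, since hair-cell-like cells were 65.5% of GFP high and 22.4% of GFP low. When the 9 classes with 20 or more cells in both gates were given the GFP low weights in both, none of the 18 genes passed 2-fold. The log2 ratio was then 0.79 for Fzd9, 0.76 for Nkd1, -0.41 for Wnt4, -0.73 for Apcdd1 and -0.68 for Sfrp2, and that of Rspo3 turned to -0.14.

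Within hair-cell-like cells, 2249 in GFP high and 827 in GFP low, 12 genes had the level to be compared. Of these 3 were higher in GFP high, 2 lower and 7 neither, against 3.55% higher and 1.67% lower of 9378 genes. Fzd9 had 24.9 CPM in GFP high and 5.77 in GFP low, a ratio of 4.31 (3.58 to 5.23). Wnt7b had 22.5 CPM in GFP high and 5.73 in GFP low, a ratio of 3.92 (3.25 to 4.77). Nkd1 had 135 CPM in GFP high and 55.6 in GFP low, a ratio of 2.43 (2.29 to 2.59). All 3 are high in clusters 6 and 7. Wnt5a had 36.3 CPM in GFP high and 87.4 in GFP low, a ratio of 0.416 (0.391 to 0.442). Apcdd1 had 3.09 CPM in GFP high and 11.9 in GFP low, a ratio of 0.26 (0.215 to 0.313). Rspo3, higher over all cells, was at 75.1 CPM in GFP high and 94.3 in GFP low here.

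The gates differed in which hair-cell-like clusters they held. Cluster 2 had 834 cells in GFP high and 349 in GFP low, cluster 5 had 386 in GFP high and 390 in GFP low, cluster 6 had 504 in GFP high and 56 in GFP low, and cluster 7 had 525 in GFP high and 32 in GFP low. Inside clusters the differences of Wnt7b were small, with 56.7 CPM in GFP high and 55.2 in GFP low in cluster 6. Nkd1 kept a difference in the same direction. It had 271 CPM in GFP high and 215 in GFP low in cluster 6, 86.8 CPM in GFP high and 63.5 in GFP low in cluster 2, and 36.6 CPM in GFP high and 26.4 in GFP low in cluster 5. Wnt5a had 60.2 CPM in GFP high and 104 in GFP low in cluster 2, and 58.9 CPM in GFP high and 86.7 in GFP low in cluster 5. Apcdd1 had 7.23 CPM in GFP high and 20.6 in GFP low in cluster 5. When both gates were given the cluster make-up of GFP low, Apcdd1 alone of the 12 genes passed 2-fold, at a log2 ratio of -1.21.

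Nkd1 was above 1 in 8 of the 9 clusters with 50 or more cells in both gates, with the interval above 1 in all 8, also with TMM scaling. Over all genes and the same clusters the interval was above 1 in 12.9% of ratios and below 1 in 13.8%. The 8 clusters included supporting-cell-like cluster 3, with 106 CPM in GFP high and 66.2 in GFP low, Merkel cell-like cluster 1, with 81 CPM in GFP high and 51.5 in GFP low, and neuron-like cluster 14, with 26.4 CPM in GFP high and 14.3 in GFP low. The remaining cluster, epidermis-like cluster 12, had 10.3 CPM in GFP high and 12 in GFP low. After thinning to 3000 UMIs, 31.6% of hair-cell-like cells in GFP high and 14.3% in GFP low had an Nkd1 UMI. Without thinning these shares were 84.3% in GFP high, at a median of 29886 UMIs, and 57.3% in GFP low, at a median of 25236 UMIs. The lowest Nkd1 level over the 26 clusters was 4.57 CPM, in the pluripotent-like cluster. That cluster held 89 cells in GFP low and 1 in GFP high, so the value gives no background level for GFP high. Nkd1 had its largest source, clusters 6 and 7, in GFP high, and the part of free RNA in the smaller differences was not tested. Nkd1 overlaps Gm45496 on the same strand.

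**Figure D5:**
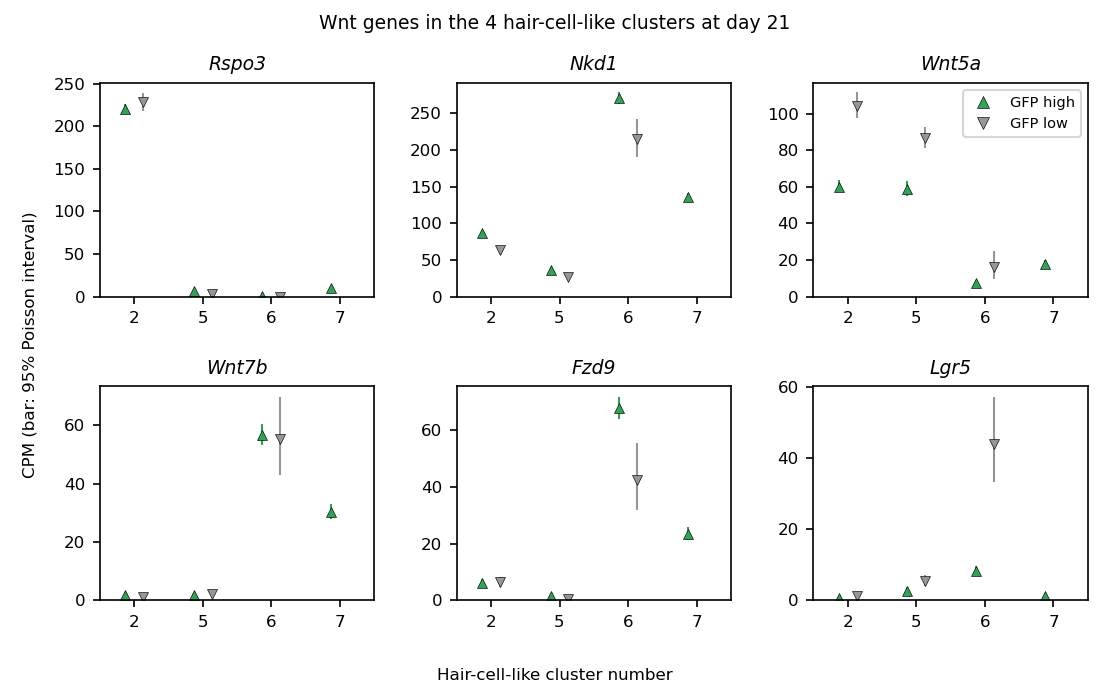
Levels (y axis, CPM, bar for the 95% Poisson interval) of 6 genes in the 4 hair-cell-like clusters at day 21, GFP high as green and GFP low as grey triangles. Cluster 7 has no GFP low point, since it held 32 such cells. Rspo3 is high in cluster 2 in both gates, and Nkd1, Wnt7b and Fzd9 in cluster 6.

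In cluster 6 Lgr5 had 8.27 CPM (141 UMIs) in GFP high and 44 CPM (55 UMIs) in GFP low, a ratio of 0.188 (0.137 to 0.262). All 55 UMIs of GFP low came from 6 of its 56 cells, and the share of cells with a UMI ran the other way, at 13.9% in GFP high and 10.7% in GFP low. The level difference in this cluster therefore rests on a few cells. In supporting-cell-like cells Lgr5 had 46 CPM in GFP high and 34.6 in GFP low.

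Within supporting-cell-like cells, 296 in GFP high and 709 in GFP low, 19 genes were compared, and 0 were higher and 0 lower, against 0.614% higher and 0.808% lower of 9280 genes. The widest ratios were 1.6 (1.45 to 1.77) for Nkd1, with 106 CPM in GFP high and 66.2 in GFP low, and 0.634 (0.56 to 0.716) for Fzd8, with 48.6 CPM in GFP high and 76.7 in GFP low. Wnt5a, Wnt7b, Sfrp2 and Lgr6 had intervals that include 1. Wnt5a had 68.6 CPM in GFP high and 67.3 in GFP low, so the gap seen in hair-cell-like clusters 2 and 5 was not seen here. Lgr6 was present in both gates, with 37.4 CPM in GFP high and 32.5 in GFP low.

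A further 74 genes of the pathway (co-receptors, the degradation complex, nuclear partners, planar polarity genes and others) were measured. At day 20 against day 16, 60 were compared. Of these, 3 were higher, 9 lower and 48 neither, against 5.04% higher and 6.76% lower of 9885 genes. Those lower included Ccnd1, a cyclin and pathway target, with 26.7 CPM at day 20 and 109 at day 16. Apc2, a relative of the tumour suppressor Apc, had 21 CPM at day 20 and 55 at day 16, and Amer2, an Apc-binding protein, had 15.3 CPM at day 20 and 38.6 at day 16. Tle1, a co-repressor of TCF factors, had 23.9 CPM at day 20 and 56.5 at day 16. Ctnnb1, which encodes beta-catenin itself, had 119 CPM at day 20 and 258 at day 16. With TMM scaling 5 of the 9 stayed past 2-fold, Ccnd1, Apc2, Amer2 and Tle1 among them, while Ctnnb1 was at a log2 ratio of -0.92 and no longer passed. The higher genes were Bambi, Lrp5 and Reck. Lrp5, a Wnt co-receptor, had 24.4 CPM at day 20 and 10.9 at day 16. These are whole-library levels, and neuron-like cells made up 39.8% of day 16 and 17.3% of day 20 cells. Values inside clusters are not given for these genes between the days. Cell make-up and level per cell are therefore not told apart here.

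In GFP high against GFP low 54 of the 74 were compared. Of these, 0 were higher, 3 lower and 51 neither, against 6.95% higher and 7.72% lower of 10542 genes. The lower genes were Apc2 with 7.82 CPM in GFP high and 27.4 in GFP low, Tcf7l2, a TCF factor, with 8.13 CPM in GFP high and 20.1 in GFP low, and Tnfrsf19 with 6.08 CPM in GFP high and 12.3 in GFP low. With the class weights of GFP low in both gates none of the 3 passed 2-fold, at log2 ratios of -0.26 for Apc2, -0.46 for Tcf7l2 and -0.23 for Tnfrsf19, and with TMM scaling Tnfrsf19 was at -0.90. Within hair-cell-like cells 1 of 38 was higher and 0 lower, against 3.55% higher and 1.67% lower of 9378 genes. The higher gene was Draxin, a secreted axon guidance protein also described as a Wnt antagonist. It had 20.2 CPM in GFP high and 2.28 in GFP low. With the cluster weights of GFP low its log2 ratio was 1.24, at under 10 CPM in both gates and so without a call. Within supporting-cell-like cells 0 of 54 were higher or lower, against 0.614% higher and 0.808% lower of 9280 genes.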

How the data were processed

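The authors deposited raw UMI counts per gene and barcode, as whole numbers without normalisation. Cell Ranger 6.1.2 made them, per the file headers, but per the submitters' processing notes it was version 6.1.0, with Seurat 4.0.6 and build mm10. The counting of introns is not given in the sources used here, and the labels' description speaks of nuclei and the protocol of cells. The RNA was polyA RNA, and CPM values were not divided by gene length, so levels were read within a gene.

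Barcodes with 1000 or more genes and at most 15% mitochondrial UMIs were kept, and the highest Scrublet scores (Scanpy 1.11.5) were removed at 0.8% per 1000 barcodes (120, 205, 109 and 137 cells at day 16, day 20, GFP high and GFP low). Cells of all libraries were clustered without integration on 2000 variable genes that excluded the 48 genes, with 30 principal components, 20 neighbours and Leiden resolution 1 (leidenalg 0.10.2, igraph 0.11.9). A cluster could be named, as likeness only, when 50% or more of a marker list had CPM plus 5 at 4 times the median cluster or more. At least 3 markers had to do so, from a list of 5 or more. Such a cluster stayed unnamed when its lists tied or when another list led its top 10 genes. Rules for outnumbering lists, crystallin genes and low depth could also leave it unnamed. The rule that parts mixed clusters, a second list raised at over 1.5 times the depth, was set after the clusters were seen.

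Levels carry exact Poisson, shares exact Clopper-Pearson and ratios exact conditional binomial 95% intervals, computed with scipy 1.17.1. They are as narrow as the depth allows and leave out variation between cultures. The interval and the size rule were tried on simulated Poisson counts, which checks the computation only. The simulation held no uneven spread of UMIs over cells and no variation between libraries. No p-values were computed. A count of 0 was read as allowing up to 3 UMIs. For shares, thinning to 3000 UMIs left out 333, 555, 31 and 93 cells at day 16, day 20, GFP high and GFP low.

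The 48 genes, the 74 further pathway genes, the marker lists and the comparisons were chosen with earlier results of these data known. Values were given for genes at 20 CPM in a library, at 50 CPM in a class of 50 or more cells, or past the size rule (27 genes). The other 21, of which Axin2 had the highest library level at 16.4 CPM, are in the ranges, and Axin2, Tcf7, Lgr5, Wnt7a, Wnt10b, Rspo4 and other such genes were named after their values were seen. Further pathway genes were up to 4 per comparison, by absolute log2 ratio among those past the rule at 20 CPM, with Ctnnb1, Lrp5, Bambi, Reck and Tnfrsf19 named after their values were seen. Alternatives were other scalings (TMM, edgeR 4.0.16), floors, fold limits, cell filters, clusterings and thinning depths. Gene coordinates come from GENCODE M21 (GRCm38), and promoter windows are from RefSeq on GRCm38.p6. No column of another series was present.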

Additional observations from a re-analysis of the deposited data

Results flagged for a closer look

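Fzd8, a Frizzled receptor, differed between GFP high and GFP low in opposite directions in hair-cell-like and supporting-cell-like cells. In hair-cell-like cells it had 17.5 CPM in GFP high and 13.9 in GFP low, a ratio of 1.26 (95% counting interval 1.11 to 1.44). In supporting-cell-like cells it had 48.6 CPM in GFP high and 76.7 in GFP low, a ratio of 0.634 (0.56 to 0.716). Neither ratio passed 2-fold, and the difference between the ratios was not tested, since each gate is 1 library.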

How the results depend on the processing

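No paired analysis was possible because each group has 1 library. Main counts of the 48 genes were 3 higher and 3 lower in GFP high over GFP low, 3 and 5 in day 20 over day 16, 3 and 2 in hair-cell-like cells and 0 and 0 in supporting-cell-like cells. With a 1.5-fold rule they were 5 higher and 5 lower between the gates and 6 and 11 between the days, and with a 3-fold rule 0 and 0, and 1 and 1. Without a floor, at 30 UMIs or more, 10 were lower in GFP high, 6 higher and 9 lower at day 20, 5 higher in hair-cell-like cells and 2 lower in supporting-cell-like cells. TMM scaling gave 2 lower at day 20. Class weights of GFP low gave 0 higher and 0 lower between the gates, with the log2 ratio of Rspo3 reversed at -0.14. Cluster weights, chosen after seeing the data, gave 0 higher and 1 lower in hair-cell-like cells, and resolution 0.5 gave 5 higher there. At resolution 0.5 no cluster was supporting-cell-like, so that comparison has no value. Shares over all genes were not counted under these alternatives, so the changed counts cannot be set against such shares.

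Of the further pathway genes, main counts were 0 higher and 3 lower between the gates, 3 and 9 between the days and 1 higher in hair-cell-like cells. Between the gates TMM scaling gave 1 higher, the 1.5-fold rule 3 higher and 18 lower, the 3-fold rule 1 lower, no floor 8 lower, and class weights 1 higher and 0 lower. Between the days TMM scaling gave 5 higher and 5 lower, the 1.5-fold rule 8 and 19, the 3-fold rule 0 and 1, and no floor 5 higher. In hair-cell-like cells no floor gave 5 higher and 1 lower, cluster weights 0 higher, and resolution 0.5 gave 2 higher. Here too, shares over all genes were not counted under the alternatives. The cause of these changes was not tested, beyond what each rule's construction sets.

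Of 136 such counts under alternatives 99 stayed within 1.5 times the main count. Of 566 log2 ratios under alternatives 446 lay inside the main counting interval, and 1 called ratio changed sign. The 566 include the 1.5-fold and 3-fold rules and the setting without a floor. Those settings change only the calls and leave each log2 ratio at its main value, so the 446 overstate how stable the ratios were. Of 110 levels in cell classes 21 left the main interval. Of 24 shares of cells with a UMI 20 did, since a share grows with the UMIs kept per cell. Thinned to 5000 UMIs, the Rspo3 share in cluster 2 was 54.8% in GFP high and 55.5% in GFP low, and the Nkd1 share of hair-cell-like cells was 40.4% in GFP high and 20.8% in GFP low. Depth limits Tcf7, Wnt10b and other low genes most.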

Other observations

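Supporting-cell-like cells were few at day 16 (61 cells), yet several of the Wnt genes stood apart there in CPM from day 21. These values lie outside the comparisons above and have no replicate. Lef1 had 17.2 CPM in these cells at day 16, 1.23 in the GFP high gate and 2.4 in the GFP low gate. Its day 16 level rests on 20 UMIs in 12 cells (counting interval 10.5 to 26.5). Lgr5 had 16.3 CPM at day 16, 46 in the GFP high gate and 34.6 in the GFP low gate. Its day 16 level rests on 19 UMIs in 9 cells (9.83 to 25.5). Lgr6 had 6.88 CPM at day 16, 37.4 in the GFP high gate and 32.5 in the GFP low gate. Its day 16 level rests on 8 UMIs in 7 cells (2.97 to 13.5). These intervals cover counting error only, and the day 16 levels of Lef1, Lgr5 and Lgr6 rest on few cells. Dkk3 had 45.6 CPM at day 16, 144 in the GFP high gate and 124 in the GFP low gate, and Fzd4 had 55.9 CPM at day 16, 119 in the GFP high gate and 128 in the GFP low gate. Sfrp1 was close to the later values, at 368 CPM at day 16, 343 in the GFP high gate and 400 in the GFP low gate. The day 16 cells may differ from the later ones in gate as well as in age, which cannot be told apart.

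Pluripotent-like cluster 24 held 89 of its 103 cells in GFP low. Lef1 had 58.6 CPM and Tcf7 16.8 CPM in those GFP low cells, while the feedback targets Nkd1, Apcdd1 and Axin2 had 3.83, 2.91 and 8.46 CPM. This is the cluster with the highest Tcf7 of all 26.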
